A study of Mus musculus with 9 samples.

Results

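The collagen hydroxylases and collagen chaperones are enzymes and helper proteins that prepare procollagen for secretion. Here 10 of them were followed across mouse astrocyte cultures exposed to hydrogen peroxide: P4ha1, P4ha2, P4ha3, P3h2, Plod1, Plod2, Plod3, Serpinh1, Crtap and Pcolce. They were taken by name, not by their values, from the 25239 genes of the deposited expression table, and all 10 had a mean of at least 1 FPKM (fragments per unit of transcript length and of sequencing depth), the level a gene needed to be tested. The cultures were primary cortical astrocytes, glia taken from the cortex of mice at postnatal day 4 and kept in DMEM with 4.5 g/L glucose, 10% horse serum and 10% fetal bovine serum. The control group had 3 libraries labelled as control, with no harvest time in the labels. The day 1 group (3 libraries) and the day 3 group (3 libraries) received 200 µM hydrogen peroxide for 3 h and were harvested 24 h and 72 h after it was washed off. No strain, genotype or sex is given, and all groups shared the age, medium and cell type. Nothing in the labels states that the replicates are separate cultures. The p-values therefore describe spread among these libraries only, and that spread may be technical. The series title places the collagen that peroxide-treated astrocytes make at the centre of the study, so the question addressed here is how the transcripts of the collagen-handling machinery moved at each time.

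A collagen chain is made in the endoplasmic reticulum, where hydroxylases add hydroxyl groups to its prolines and lysines before 3 chains wind into a triple helix. Prolyl 4-hydroxylation makes that helix stable at body temperature, prolyl 3-hydroxylation occurs at few sites, and lysyl hydroxylation prepares the residues that later carry sugars and cross-links. The hydroxylases use molecular oxygen, 2-oxoglutarate, iron and ascorbate. The chaperone HSP47, encoded by Serpinh1, binds the folded helix, and other helpers act on proline isomers or on the propeptides that are cut off outside the cell. In the brain, fibrillar collagen is sparse and is found mainly in the meninges and around vessels, and it is deposited in scars after injury.

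On day 1 the mRNA of 8 of the 10 genes rose and that of 2 fell, read against 31.1% of all 12611 tested genes that were higher and 31.1% that were lower (limma, Benjamini-Hochberg adjusted p under 0.05). The lysyl hydroxylase gene Plod2 and the chaperone gene Serpinh1 rose most, by 2.08-fold and 1.79-fold. P4ha3, the most abundant prolyl 4-hydroxylase alpha subunit in these cultures, fell 1.31-fold, and the prolyl 3-hydroxylase gene P3h2 fell 1.13-fold. By day 3, 4 of the 10 (P4ha2, Plod2, Crtap and Pcolce) exceeded control, beside 7.37% of all tested genes, and 0 were lower in the limma fit, beside 6.45%. At an unadjusted p under 0.05 in the same limma fit, P4ha3 was lower on day 3, and P4ha1, Plod3 and Serpinh1 joined the 4 called higher. The share of all tested genes at that cut was not computed. The voom fit on reads recovered from the FPKM called 6 higher and 0 lower, beside 1319 higher and 1143 lower of all 12611 tested genes. From day 1 to day 3, 7 fell, 2 rose and Pcolce alone made no call, beside 28.4% lower and 27.9% higher of all tested genes. The median log2 fold change of the 10 genes was 0.36 on day 1 and 0.11 on day 3 against control, while the median over all tested genes was -0.0014 and 0.0060. The rescaling between libraries holds the median over all tested genes near 0. Without rescaling that median was -0.033 on day 1 and -0.0099 on day 3, each against control. The 3 day 1 values lay outside the range of the 3 control values for all 10 genes after rescaling, beside 67.2% of all tested genes, and for 9 in the FPKM as deposited, where Plod1 overlapped. The same held on day 3 against control for 6 genes (8 as deposited, with P4ha3 and Plod1 added), beside 32.6% of all tested genes, and on day 3 against day 1 for 9 genes, beside 62.8%. Both comparisons with control share the same 3 control libraries, so their values are given side by side and were not treated as independent.

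The libraries held 23032594 to 38414668 reads, and each of the 10 genes had between 473 reads (P4ha2, control replicate 1) and 27058 reads (Serpinh1, day 1 replicate 2) in a library, as recovered from the FPKM. The ribosomal precursor Rn45s took 9.42% to 11.9% of control reads, 7.68% to 9.37% of day 1 reads and 9.15% to 11.1% of day 3 reads, so control and day 1 did not overlap. Astrocyte markers were abundant, with Gfap at 1493 ± 33.7 FPKM and Aqp4 at 102 ± 2.40 FPKM (SD, n = 3) in control, and the list had 2 higher and 7 lower of 11 on day 1 (Slc1a2 fell 1.77-fold) and 4 lower on day 3. Its sum, in which Gfap was the largest single term, was 3158 to 3236 FPKM in control, 2335 to 2624 on day 1 and 2906 to 2941 on day 3. Markers of cells that make much collagen were also present. The fibroblast list (12 genes, 9 tested) had 5 higher and 4 lower on day 1 and 5 higher and 4 without a call on day 3. It summed to 272.9 to 275.6 FPKM in control, 181.5 to 193.6 on day 1 and 298.8 to 303.0 on day 3. The largest term of that sum in control was Igf2, at 112.2 ± 0.348 FPKM, with 46.7 ± 4.07 on day 1 and 119 ± 3.43 on day 3. While the sum fell on day 1, the median log2 fold change of the 9 tested genes was 0.216. The defining fibroblast genes Dpt and Pi16 had means under 1 FPKM, while Tbx18 rose 2.08-fold and Dcn fell 4.90-fold on day 1, the latter from 45.1 ± 1.85 to 9.01 ± 1.503 FPKM. The mural list (10 genes, 6 tested) had 4 higher and 1 lower on day 1 and 2 higher and 1 lower on day 3. It summed to 90.0 to 92.6 FPKM in control, 132.6 to 139.4 on day 1 and 79.1 to 85.6 on day 3. The largest term of that sum was Cnn1, with means of 51.9 FPKM in control, 77.8 on day 1 and 39.2 on day 3. Cnn1 was the gene called lower on day 3 (1.31-fold), when Notch3 and Anpep were called higher. While the sum fell below control on day 3, the median log2 fold change of the 6 tested genes was 0.142. Of the defining mural genes, Kcnj8 and Myh11 had means under 1 FPKM and Pdgfrb rose 1.66-fold on day 1, while Rgs5 made no call. Of the other mural genes, Vtn fell 4.33-fold on day 1, from 2.58 ± 0.340 to 0.537 ± 0.228 FPKM. The summed microglia markers went from 271.3 to 295.1 FPKM in control to 120.9 to 131.0 on day 1 (1 higher and 8 lower of 9 tested) and 224.7 to 284.2 on day 3 (9 without a call). Oligodendrocyte lineage markers (1 higher and 7 lower of 8 on day 1, 6 lower on day 3) summed to 282.2 to 287.1, 157.7 to 171.8 and 224.4 to 230.1 FPKM, and ependymal markers (4 lower of 4 on day 1, 4 without a call on day 3) to 121.0 to 132.3, 71.3 to 80.4 and 110.6 to 126.1 FPKM. Of the endothelial markers, 1 of 8 reached a mean of 1 FPKM. The part of these shifts in the results below was not tested, and in bulk RNA fewer cells of a type and less RNA per cell cannot be told apart.

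**Figure D1:**
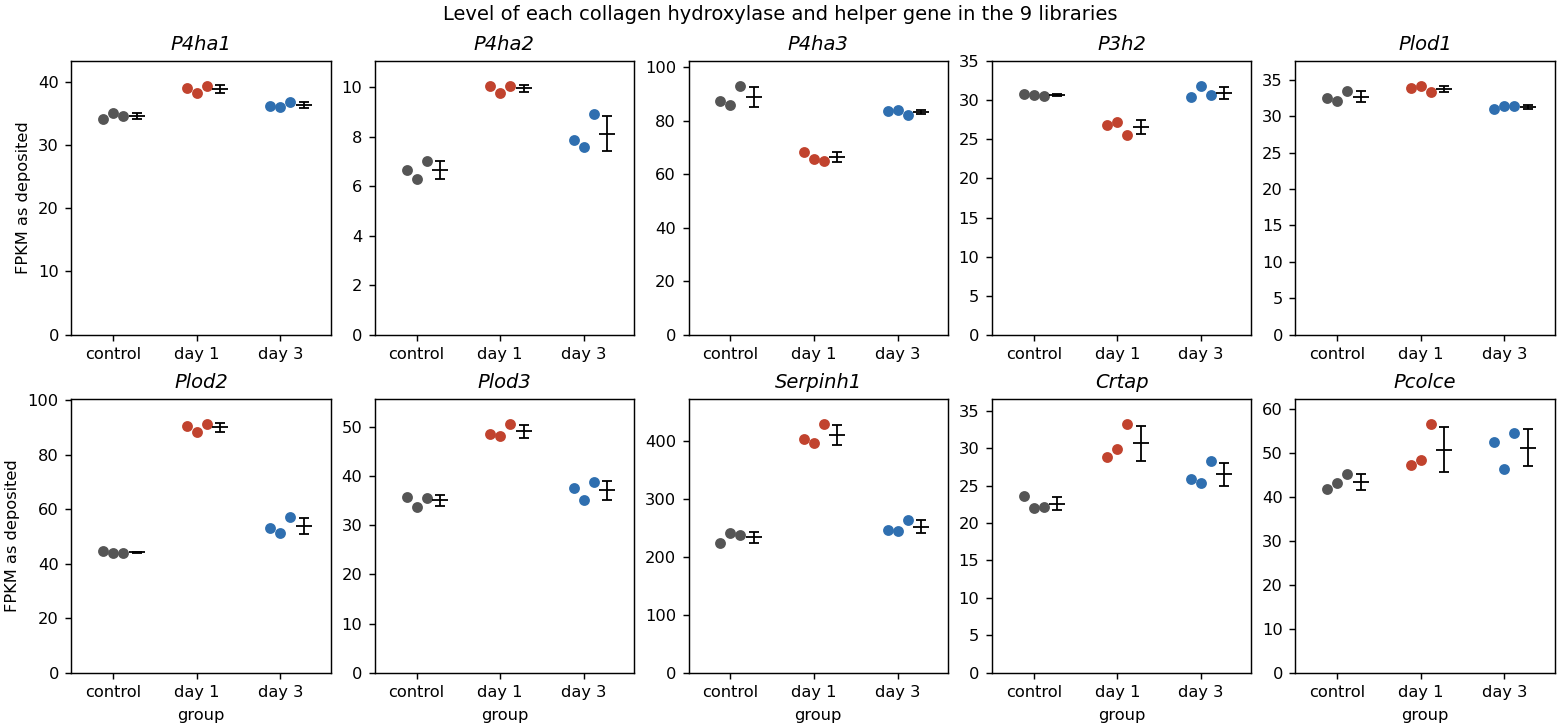
FPKM as deposited (vertical axes, each from 0) of the 10 genes in the control, day 1 and day 3 groups, with 1 point per library and the mean ± SD of 3 libraries beside the points in black. Plod2 and Serpinh1 stand highest on day 1, P4ha3 and P3h2 are lowest on day 1, and Pcolce lies as high on day 3 as on day 1.

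The prolyl 4-hydroxylase of collagen is a tetramer of 2 alpha subunits, which carry the active site and are encoded by P4ha1, P4ha2 or P4ha3, and 2 beta subunits, which are protein disulfide isomerase encoded by P4hb. P4ha1 lies on chromosome 10 (59323296 to 59373304, plus strand), P4ha2 on chromosome 11 (54100095 to 54131665, plus strand) and P4ha3 on chromosome 7 (100285520 to 100319699, plus strand), in the GENCODE annotation of GRCm38. The sequences upstream of a RefSeq start site of the 3 genes are shown because these paralogues did not move alike, and that of Serpinh1 because it is the most abundant of the 10 genes. They are RefSeq promoter windows (GRCm38.p6), without the bases that lie in annotated exons, at chr10:59323046-59323196 (plus strand), chr11:54100674-54100923 (plus strand), chr7:100285270-100285488 (plus strand) and chr7:99353240-99353489 (minus strand). For P4ha2 the RefSeq start site (54100924), and with it the window, lies inside the GENCODE span given above. Capitals mark ACGTG and GCGTG on either strand, read as CACGT and CACGC where the match is on the other strand, the core of the element that hypoxia-inducible factors (HIF) bind.
P4ha1: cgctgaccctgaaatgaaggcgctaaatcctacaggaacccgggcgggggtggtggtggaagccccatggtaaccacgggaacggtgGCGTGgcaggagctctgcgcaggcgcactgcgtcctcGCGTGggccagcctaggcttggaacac
P4ha2: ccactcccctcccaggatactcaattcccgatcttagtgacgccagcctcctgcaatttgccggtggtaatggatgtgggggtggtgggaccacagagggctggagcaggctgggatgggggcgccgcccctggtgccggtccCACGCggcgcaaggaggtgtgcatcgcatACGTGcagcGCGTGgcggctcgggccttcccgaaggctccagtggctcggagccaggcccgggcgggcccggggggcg
P4ha3: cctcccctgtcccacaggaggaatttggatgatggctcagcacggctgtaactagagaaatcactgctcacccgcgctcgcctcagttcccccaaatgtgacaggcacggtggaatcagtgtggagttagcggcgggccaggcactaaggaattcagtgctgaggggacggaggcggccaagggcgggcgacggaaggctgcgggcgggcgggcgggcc
Serpinh1: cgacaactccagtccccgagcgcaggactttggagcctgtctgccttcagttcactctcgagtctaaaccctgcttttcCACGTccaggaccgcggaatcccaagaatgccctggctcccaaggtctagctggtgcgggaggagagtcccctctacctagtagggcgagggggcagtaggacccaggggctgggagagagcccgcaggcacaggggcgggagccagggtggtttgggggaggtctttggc

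Of the 10 genes, 8 have a window in the RefSeq table; P3h2 and Plod2 have none. The RefSeq start site of Pcolce (137611404), like that of P4ha2, lies inside the GENCODE span of its gene. In the 250 bases before the RefSeq start site, 7 of the 8 held ACGTG or GCGTG on at least 1 strand, beside 38.6% of the 32851 windows in the table. P4ha1, P4ha2 and Crtap had 3 matches each, Plod3 had 4, Plod1, Serpinh1 and Pcolce had 1 each, and P4ha3 had 0. TTCNNGAA or GAANNTTC, the spacing of adjacent units of a heat shock element, was found in P4ha2 (1 match) and in no other of the 8, beside 12.8% of windows. A match describes letters in these windows and is not evidence of binding, and their absence says nothing of a factor.

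P4ha1, the alpha subunit found in most cell types, was at 34.0, 35.0 and 34.6 FPKM in the control libraries, 39.0, 38.2 and 39.3 on day 1 and 36.2, 35.9 and 36.8 on day 3. Each day 1 value exceeded each control value, and the day 3 values lay between both groups. The rise on day 1 was 1.15-fold (log2 fold change 0.20 ± 0.026 SE, limma adjusted p = 6.76e-05). On day 3 the difference from control was 0.09 on the log2 scale and did not pass (adjusted p = 0.0530), although it did without day 1 replicate 3 (0.0467) and in the voom fit on recovered reads (0.0343).

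P4ha2, the alpha subunit known from cartilage and bone, had the lowest level of the 10 genes in all 3 groups. It was at 6.665, 6.275 and 7.015 FPKM in control, 10.0, 9.77 and 10.0 on day 1, and 7.85, 7.58 and 8.92 on day 3. The 3 groups did not overlap, with day 3 in the middle. It rose 1.52-fold on day 1 (log2 0.61 ± 0.060 SE, limma adjusted p = 8.78e-06) and was still 1.23-fold above control on day 3 (adjusted p = 0.00914).

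P4ha3, the alpha subunit described last, was the most abundant of them here and moved the other way. Its level was 87.2, 85.8 and 92.9 FPKM in control, 68.3, 65.7 and 64.7 on day 1, and 83.5, 83.9 and 82.1 on day 3. All day 1 values were below all others, and day 3 lay just under control. The fall on day 1 was 1.31-fold (log2 fold change -0.39 ± 0.033 SE, limma adjusted p = 2.90e-06), which placed it 1537 from the bottom of the 12611 tested genes by log2 fold change. On day 3 the log2 difference from control was -0.08 (adjusted p = 0.169; unadjusted p = 0.0457 in the same limma fit).

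Because these 3 subunits share the same beta partner, their mix was compared in each library. P4ha1 made up 26.6%, 27.6% and 25.7% of their summed FPKM in control, 33.2%, 33.6% and 34.5% on day 1, and 28.4%, 28.2% and 28.8% on day 3. P4ha2 went from 5.12% ± 0.160 (SD, n = 3) to 8.65% ± 0.135 and 6.36% ± 0.543, and P4ha3 from 68.3% ± 0.763 to 57.6% ± 0.777 and 65.2% ± 0.825. P4ha3 thus supplied most alpha subunit transcript in every library. The summed level of the 3 was 130 ± 4.07 FPKM in control, 115 ± 2.01 on day 1 and 128 ± 0.205 on day 3. P4hb rose 1.49-fold on day 1, from 149.9 ± 2.76 to 217.8 ± 4.61 FPKM, so the alpha subunits summed to 0.866 ± 0.012 of the P4hb level in control, 0.528 ± 0.015 on day 1 and 0.802 ± 0.012 on day 3. For the P4ha1 share and for the ratio to P4hb, the groups did not overlap in any of the 3 comparisons, and each exact two-sided permutation test gave p = 0.1, the smallest that 3 libraries against 3 can give.

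P3h2, on chromosome 16 (25959288 to 26105784, minus strand), encodes a prolyl 3-hydroxylase best known for acting on basement membrane collagen. It was at 30.9, 30.6 and 30.6 FPKM in control, 26.9, 27.2 and 25.6 on day 1, and 30.4, 31.8 and 30.6 on day 3. The day 1 values were below all others, and the control and day 3 values overlapped. It fell 1.13-fold on day 1 (log2 fold change -0.18 ± 0.033 SE, limma adjusted p = 0.000750), while the day 3 difference of 0.03 did not pass (adjusted p = 0.644, 95% interval -0.044 to 0.10). Its paralogue P3h1, which works in a complex with the Crtap protein and the proline isomerase cyclophilin B, rose 1.68-fold on day 1, from 12.3 ± 0.420 to 20.3 ± 0.688 FPKM. The prolyl 3-hydroxylase genes P3h2 and P3h1 therefore changed in opposite directions.

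**Figure D2:**
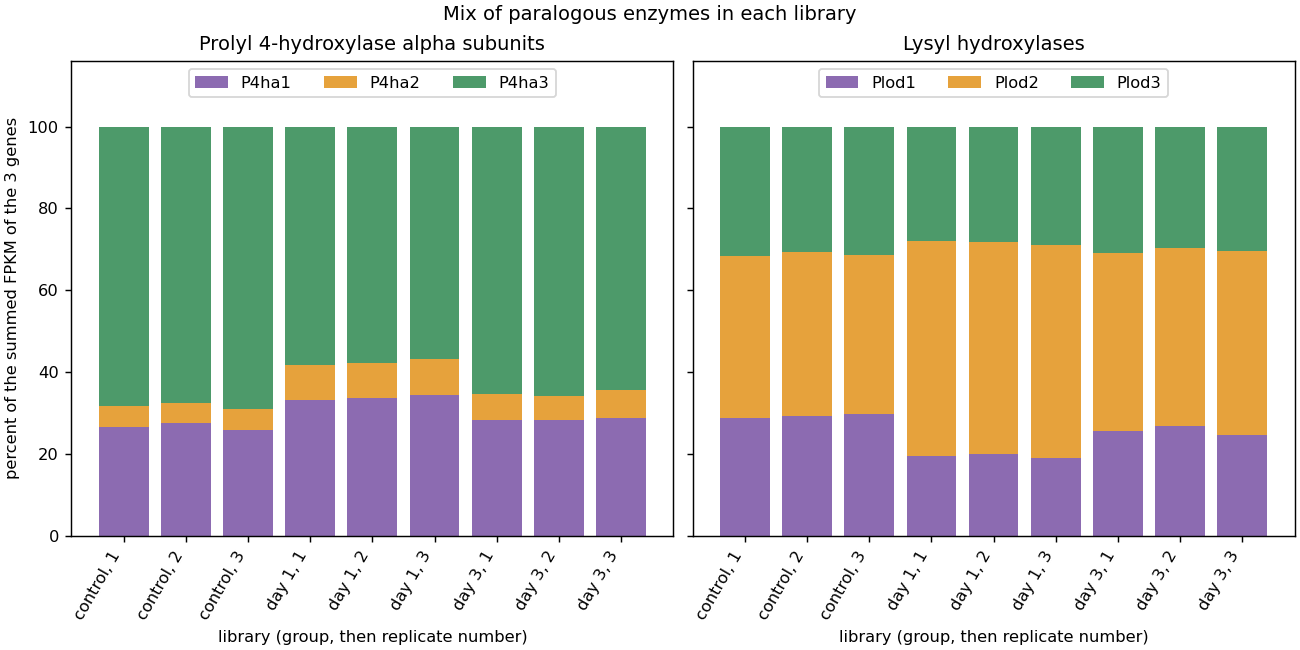
Percent of summed FPKM (vertical axis) taken by each of the P4ha1, P4ha2 and P4ha3 genes (left) and the Plod1, Plod2 and Plod3 genes (right) in each of the 9 libraries (horizontal axis), as stacked bars. The P4ha3 segment is shortest in the 3 day 1 libraries, and the Plod2 segment is longest there.

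The lysyl hydroxylases differ in where they act: the Plod1 enzyme hydroxylates lysines of the helix, the Plod2 enzyme those of the telopeptides at the chain ends, from which stable cross-links form, and the Plod3 enzyme also adds sugars to hydroxylysine. Plod2 (chromosome 9, 92542223 to 92608428, plus strand) was at 44.5, 44.1 and 43.9 FPKM in control, 90.5, 88.3 and 91.3 on day 1, and 53.1, 51.2 and 57.0 on day 3. Each day 1 value was far above every other, and each day 3 value was above every control value. The change on day 1 was 2.08-fold (95% interval 1.97 to 2.20; log2 1.06 ± 0.036 SE; limma adjusted p = 6.87e-09), which ranked it 170 from the top of the 12611 tested genes by log2 fold change. On day 3 Plod2 was 1.23-fold above control (adjusted p = 0.000598), with 28.1% of the day 1 log2 change present.

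Plod3 (chromosome 5, 136987019 to 136996648, plus strand) was at 35.8, 33.7 and 35.6 FPKM in control, 48.5, 48.2 and 50.6 on day 1, and 37.5, 35.0 and 38.8 on day 3. Day 1 stood apart, and control and day 3 overlapped. The rise was 1.43-fold on day 1 (log2 0.52 ± 0.042 SE, limma adjusted p = 1.85e-06), and the day 3 difference of 0.10 did not pass (adjusted p = 0.154). Exons of Plod3 overlap those of Znhit1 on the opposite strand, which was listed at 13.7 to 16.1 FPKM over the 9 libraries. How the counting treated strand was not given in the sources used here.

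Plod1 (chromosome 4, 147909753 to 147936767, minus strand) barely moved. It was at 32.5, 32.0 and 33.5 FPKM in control, 33.8, 34.1 and 33.3 on day 1, and 31.0, 31.4 and 31.4 on day 3. As deposited, the control and day 1 values overlapped. After rescaling, Plod1 rose 1.06-fold on day 1 (log2 0.08 ± 0.027 SE, limma adjusted p = 0.0248), a call lost without rescaling (0.05, adjusted p = 0.179) and with quantile normalization (0.04, adjusted p = 0.223). It was also lost without control replicate 2 (0.06, adjusted p = 0.104) and without day 1 replicate 1, 2 or 3 (adjusted p = 0.0525, 0.0551 and 0.0519). The day 3 difference from control was -0.05 (adjusted p = 0.286).

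Plod2 therefore held more of the lysyl hydroxylase transcripts on day 1. Its share of the summed FPKM of the 3 genes was 39.5%, 40.1% and 38.9% in control, 52.4%, 51.8% and 52.1% on day 1, and 43.7%, 43.5% and 44.8% on day 3. The groups did not overlap in any of the 3 comparisons (exact two-sided permutation p = 0.1 each, the smallest possible). The Plod1 share fell from 29.2% ± 0.419 (SD, n = 3) to 19.5% ± 0.497 on day 1 and was 25.6% ± 1.03 on day 3, and the Plod3 share was 31.3% ± 0.535, 28.4% ± 0.420 and 30.4% ± 0.543. Summed over the 3 genes, lysyl hydroxylase FPKM was 112 ± 1.71 in control, 173 ± 2.26 on day 1 and 122 ± 4.81 on day 3.

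**Figure D3:**
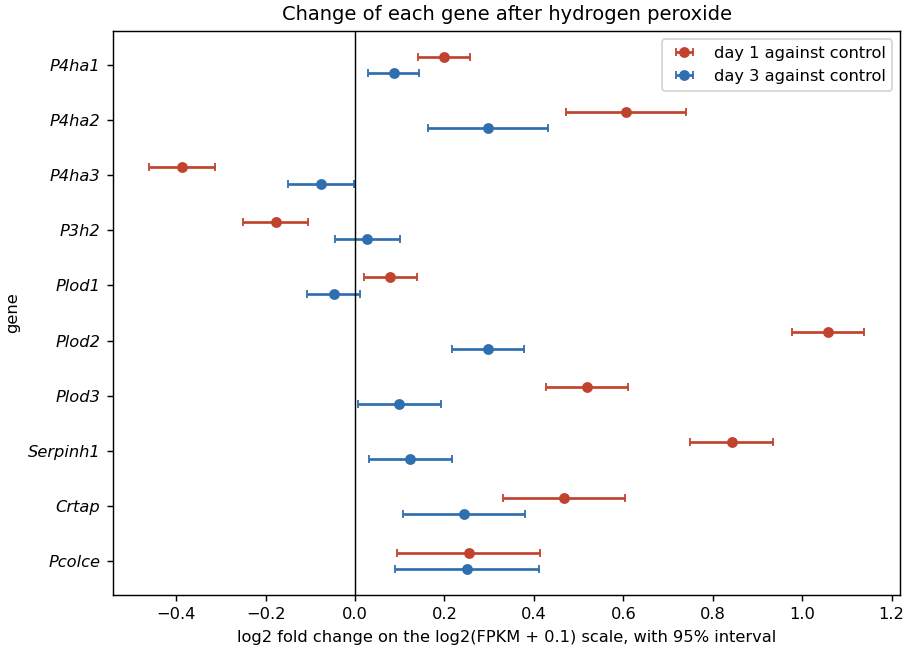
Log2 fold change (horizontal axis, log2(FPKM + 0.1) scale, with the 95% interval as bars) of each of the 10 genes (vertical axis) on day 1 in red and on day 3 in blue, each against control. On day 1 Plod2 and Serpinh1 lie farthest right, and P4ha3 and P3h2 lie left of 0. On day 3 P4ha3 and Plod1 lie left of 0, and P3h2 lies right of it. Pcolce is the only gene whose day 1 and day 3 points coincide.

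Serpinh1 (chromosome 7, 99345376 to 99353239, minus strand) encodes HSP47, the collagen-specific chaperone of the endoplasmic reticulum. It was at 224, 241 and 238 FPKM in control, 404.5, 397.5 and 430 on day 1, and 247, 245 and 265 on day 3. Every day 1 value was far above the highest of the others, and the day 3 values were just above control. The rise on day 1 was 1.79-fold (95% interval 1.68 to 1.91; log2 0.84 ± 0.042 SE; limma adjusted p = 7.27e-08). On day 3 the log2 difference of 0.12 did not pass (adjusted p = 0.0797), but it did without day 1 replicate 3 (0.0382) and in the voom fit on recovered reads (0.0117).

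Crtap (chromosome 9, 114375134 to 114390675, minus strand) encodes cartilage-associated protein, the non-catalytic partner of prolyl 3-hydroxylase 1. It was at 23.6, 22.0 and 22.2 FPKM in control, 28.8, 29.9 and 33.2 on day 1, and 25.9, 25.4 and 28.2 on day 3. The groups did not overlap, with day 3 in the middle. Crtap rose 1.38-fold on day 1 (log2 0.47 ± 0.062 SE, limma adjusted p = 7.38e-05) and was 1.18-fold above control on day 3 (adjusted p = 0.0255). The day 3 call was lost without control replicate 2 or 3 (adjusted p = 0.0857 and 0.0847) or day 3 replicate 3 (0.0944), with no filter on low genes (0.0546) and with no variance trend (0.0551).

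Pcolce (chromosome 5, 137605103 to 137613784, minus strand) encodes an extracellular protein that speeds removal of the C-propeptide of fibrillar procollagens. Its values were 41.8, 43.1 and 45.4 FPKM in control, 47.4, 48.4 and 56.7 on day 1, and 52.6, 46.5 and 54.6 on day 3. All treated libraries were above all control libraries, and the 2 times overlapped each other. Pcolce rose 1.19-fold on day 1 (log2 0.25 ± 0.072 SE, limma adjusted p = 0.0106) and was 1.19-fold above control on day 3 (adjusted p = 0.0436). The day 3 call was lost without control replicate 1, 2 or 3 (adjusted p = 0.116, 0.113 and 0.0715), without day 3 replicate 1 or 3 (0.130 and 0.144), and without both libraries richest in Rn45s (0.0579). It was also lost with no filter (0.0913), no rescaling (0.0579) or no variance trend (0.0855). Between day 1 and day 3 the log2 difference was -0.0033 (95% interval -0.16 to 0.16, adjusted p = 0.974). Exons of Pcolce overlap those of Fbxo24 on the same strand, which was listed at 0.466 to 0.940 FPKM.

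On day 3, 9 of the 10 genes differed from day 1 and Pcolce did not pass, beside 28.4% lower and 27.9% higher of all tested genes. The extents were not compared between genes by a test. As control has no stated harvest time, time since peroxide and time in culture cannot be told apart here. Of the day 1 log2 change, 14.7% was present on day 3 for Serpinh1, 19.0% for Plod3, 19.4% for P4ha3 and 28.1% for Plod2, against 43.2% for P4ha1, 49.0% for P4ha2, 52.3% for Crtap and 98.7% for Pcolce. P3h2 and Plod1 had day 3 differences of the other sign, neither of which passed. Between the times Plod2 was down by 1.69-fold (limma adjusted p = 1.08e-07), Serpinh1 down by 1.65-fold (3.62e-07) and P4ha3 up by 1.24-fold (2.01e-05). The count of 4 genes above control on day 3 was 2 without control replicate 2 or 3 or day 3 replicate 3, and 6 without day 1 replicate 3, with P4ha2 and Plod2 called in every one of the 20 other settings tried.

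In order of level in control, Serpinh1 came first at 234 ± 9.12 FPKM, followed by P4ha3 at 88.7 ± 3.73. Plod2 (44.2 ± 0.308) and Pcolce (43.5 ± 1.79) overlapped, as did Plod3 (35.0 ± 1.12) and P4ha1 (34.6 ± 0.508). Plod1 (32.7 ± 0.733), P3h2 (30.7 ± 0.149), Crtap (22.6 ± 0.891) and P4ha2 (6.65 ± 0.371) followed without overlap. On day 1 Plod2, at 90.0 ± 1.54 FPKM, passed P4ha3, at 66.2 ± 1.88, and Crtap, at 30.6 ± 2.32, passed P3h2, at 26.5 ± 0.871. On day 3 the order was that of control, with Plod1 and P3h2 now overlapping. The spread within a group was small, with a coefficient of variation from 0.484% (P3h2 in control) to 10.0% (Pcolce on day 1).

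Summed collagen chain transcripts rose further on day 1 than summed hydroxylase transcripts. All 11 collagen chain genes listed (types I, III, IV, V and VI) were higher on both days, each against control. Over all tested genes 31.1% were higher on day 1 and 7.37% on day 3. The 11 chain genes had median log2 fold changes of 1.14 and 0.31. Their summed level was 1454 ± 52.7 FPKM in control, 3127 ± 101.3 on day 1 and 1822 ± 169 on day 3, while the 7 hydroxylase genes summed to 272 ± 5.25, 314 ± 2.75 and 281 ± 4.52. The largest terms of the chain sum were Col1a1 and Col1a2. Their means went from 392.4 and 308.1 FPKM in control to 1026 and 723.4 on day 1. The hydroxylase sum includes P4ha3, which fell on day 1, and Plod2, whose 2.08-fold rise exceeded that of some single chains, such as Col3a1 at 1.63-fold. The hydroxylases per chain transcript were therefore 0.193, 0.185 and 0.184 in control, 0.104, 0.101 and 0.0971 on day 1, and 0.152, 0.168 and 0.144 on day 3. The day 1 ratio was 0.537 of the control ratio, and the groups did not overlap. Serpinh1, at 1.79-fold on day 1, rose more than Col3a1, Col4a1 (1.72-fold) and Col4a2 (1.62-fold) and less than the other listed chains. Serpinh1 kept closer to the chain sum, with 0.161 ± 0.0048 in control, 0.131 ± 0.0020 on day 1 and 0.139 ± 0.0087 on day 3. Each of these differences had an exact two-sided permutation p of 0.1, the smallest possible, and the 15 tests made on shares and ratios all gave that value, also after Benjamini-Hochberg adjustment. These ratios compare transcripts, not proteins or enzyme activity.

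**Figure D4:**
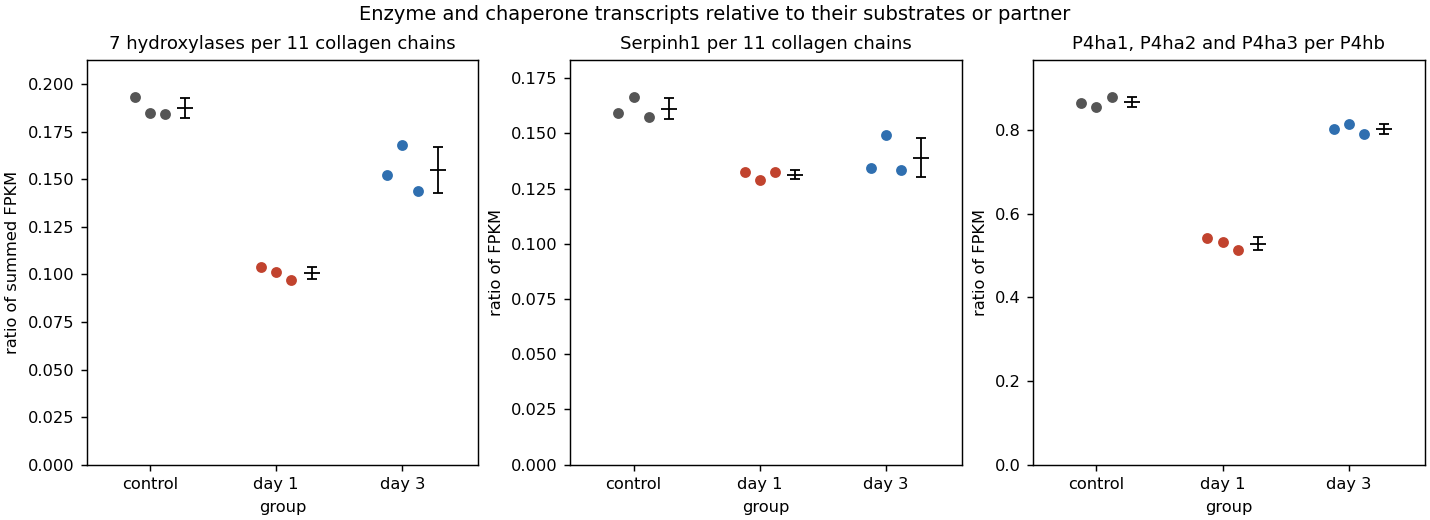
Ratios of FPKM (vertical axes, each from 0) in the control, day 1 and day 3 groups, with 1 point per library and mean ± SD of 3 libraries in black: the 7 hydroxylases per 11 collagen chains, Serpinh1 per 11 collagen chains, and the 3 P4ha genes per P4hb. All 3 ratios were lowest on day 1, with means of 0.101, 0.131 and 0.528 against 0.187, 0.161 and 0.866 in control.

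Most other listed genes of the same pathway rose on day 1, as 8 of the 10 did while P4ha3 and P3h2 fell. Of 10 further genes that modify or fold procollagen, 8 rose, beside 31.1% of all tested genes, with P3h3 (log2 0.08, limma adjusted p = 0.229) and Tmem38b (0.03, adjusted p = 0.688) not passing; their median log2 fold change was 0.47, beside -0.0014 for all tested genes. Fkbp10, which encodes the proline isomerase FKBP65 and is known to act with lysyl hydroxylase 2, rose 1.92-fold, from 39.8 ± 0.256 to 74.8 ± 3.49 FPKM (SD, n = 3), in the same direction as Plod2. Ppib, the gene of cyclophilin B, rose 1.20-fold, from 61.5 ± 1.89 to 72.0 ± 3.39 FPKM, so all 3 genes of the prolyl 3-hydroxylase 1 complex (P3h1, Crtap and Ppib) rose. On day 3 against control 2 of the 10 were higher, beside 7.37% of all tested genes: P4hb (1.07-fold, limma adjusted p = 0.0364) and Fkbp10 (1.11-fold, adjusted p = 0.0494). Against day 1, 8 of the 10 were lower on day 3, beside 28.4% of all tested genes, by the most for Fkbp10 and Colgalt2.

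Genes that carry procollagen out of the cell or cut its propeptides were listed in 13, of which Tll2 and Adamts3 were under a mean of 1 FPKM and not tested. Of the 11 tested, 10 rose on day 1, beside 31.1% of all tested genes, and Klhl12 did not pass. Their median log2 fold change was 0.31, beside -0.0014 for all tested genes. The largest changes were in low genes: Tll1, a C-proteinase of the family whose action the Pcolce protein enhances, rose 2.73-fold, from 1.55 ± 0.0889 to 4.32 ± 0.302 FPKM, and Adamts14, an N-proteinase, rose 2.18-fold, from 2.14 ± 0.228 to 4.66 ± 0.285. Tll1 (1.32-fold, limma adjusted p = 0.00433) and Bmp1 (1.09-fold, adjusted p = 0.0246), the main C-proteinase, were the 2 of 11 still higher on day 3, beside 7.37% of all tested genes. Between the times 9 of 11 fell, beside 28.4% of all tested genes, by the most for Tll1 and Adamts14.

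**Figure D5:**
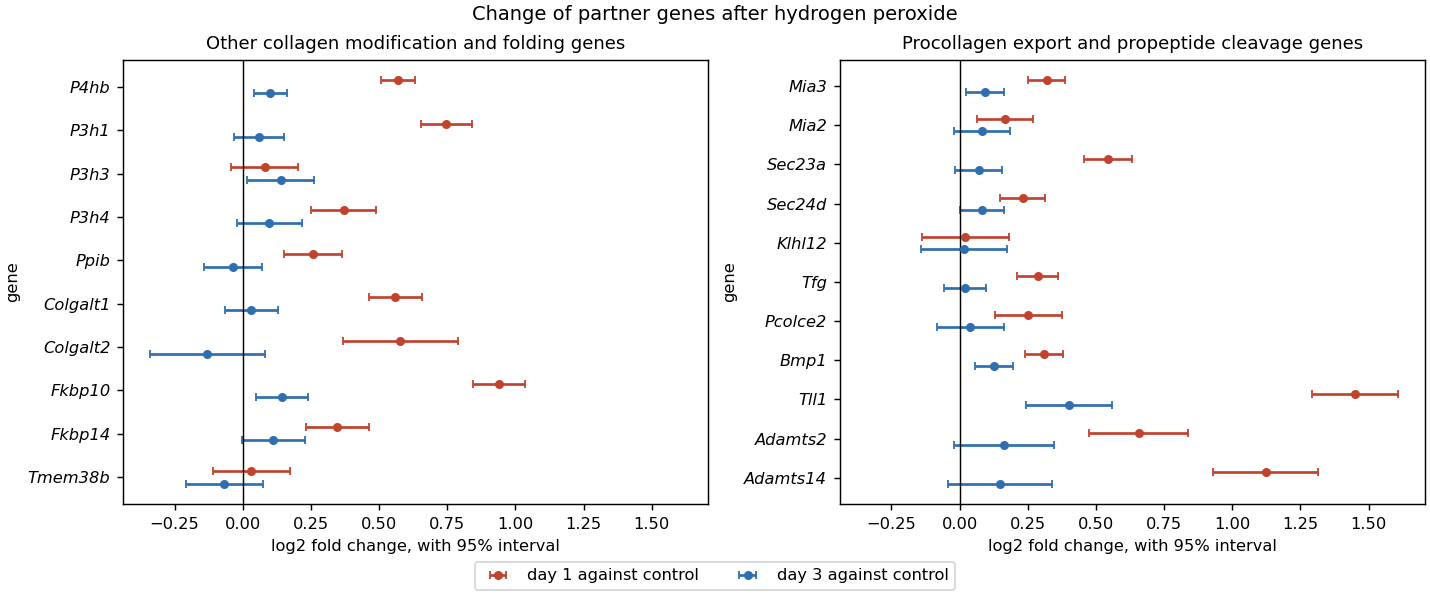
Log2 fold change (horizontal axes, with the 95% interval as bars) on day 1 in red and day 3 in blue, each against control, of 10 other procollagen modification and folding genes (left) and 11 export and propeptide cleavage genes (right). Most day 1 points lie right of 0, with Fkbp10 farthest on the left panel and Tll1 on the right, while most day 3 intervals reach or lie close to 0.

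Gene groups known to be linked to the 10 through shared regulation or shared chemistry were counted in the same way. P4ha1, P4ha2 and Plod2 are textbook targets of HIF; of 12 other HIF targets tested, 5 were higher and 4 lower on day 1, close to the 31.1% in each direction over all tested genes, with a median log2 fold change of 0.04, from Vegfa (1.30-fold higher, limma adjusted p = 0.000161) to Adm (1.51-fold lower, 0.000538). On day 3, 1 was lower, beside 6.45% of all tested genes, and 11 did not pass. The oxygen-sensing hydroxylases, of the same dioxygenase class, went down as most collagen hydroxylases went up. On day 1, 4 of 5 fell, led by Egln1 at 1.24-fold, beside 31.1% of all tested genes. Egln3 and P4htm were lower on day 3, beside 6.45% of all tested genes. Serpinh1 is also a heat shock gene. Of 9 heat shock genes 6 rose on day 1, led by Hspb1 at 1.53-fold, beside 31.1% of all tested genes. Hspa1a (log2 -0.03, limma adjusted p = 0.678) and Hspa1b (-0.08, adjusted p = 0.501) did not pass. Of 10 general chaperones of the endoplasmic reticulum, 8 rose, led by Pdia3 at 1.54-fold, and 2 fell, led by Sdf2l1 at 1.20-fold, beside 31.1% each way. On day 3, 4 of these 10 chaperones and 1 of the 9 heat shock genes (Hspb1, 1.31-fold) were higher, beside 7.37% of all tested genes. The heat shock count was close to that share. All 8 listed targets of TGF-beta, which is known to induce collagen genes, rose on day 1, beside 31.1% of all tested genes. On day 3, 5 of these 8 were higher, beside 7.37%. Of 5 tested transporters and enzymes of ascorbate or metal supply, 2 rose and 1 fell on day 1, beside 31.1% each way over all tested genes. That list is too short to compare with this share. Gsto1 rose 1.56-fold, and Slc23a2, an ascorbate transporter, fell 1.13-fold.

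The genes whose profiles over the 9 libraries were most like those of the 10 were found by the root mean square difference of log2 values, each centred on its own mean. For Plod2 it was the collagen chain gene Col6a2, at a difference of 0.024, which rose 2.08-fold on day 1 as Plod2 did. Next to it came Ptprn (0.045) and Pxylp1 (0.053). Serpinh1 was closest to Gars (0.032), Ncam1 (0.038) and Tpm1 (0.043), and Plod3 to Kdelr2, Tpm4 and Tuba1c (0.032 to 0.033). For the alpha subunits the nearest were Bace1 (0.016), Pld3 and Lix1l for P4ha1, Adgra2 (0.044), Myo1d and Foxp1 for P4ha2, and Pex6 (0.018), Phf21b and Stk11 for P4ha3. P3h2 was nearest to Sdc4 (0.019), Cdk5rap2 and Clstn1, and Plod1 to Tjap1 (0.022), Tlk2 and Parl. Crtap was nearest to Bnc2 (0.037), Cacna1c and Tsku, and Pcolce to Siva1 (0.052), Zfhx4 and Orai2. None of the 10 had another of the 10 among its 3 nearest genes. With 12611 genes to choose from and 3 groups, close profiles are a description of these libraries.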

How the data were processed

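Polyadenylated RNA was sequenced in 9 libraries (3 control, 3 day 1, 3 day 3). The deposited table gives FPKM, computed by the authors for each library. The submitters' processing notes name STAR 2.7.3a, cutadapt 2.6, FastQC 0.12.1 and DESeq2, and the builds GRCm38 and mm10. Not given in the sources used here were the counting program, annotation and handling of strand. FPKM gave whole reads, to within 0.01 read, for 20350 of 20350 genes above 0 (100%). The length of each gene was taken as the smallest that gave whole reads. For genes above 0 in few libraries the 100% was therefore partly fixed in advance. The recovered reads served the voom alternative, an alternative for the shares and ratios, and the read numbers and Rn45s shares given.

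FPKM were rescaled between libraries by median-of-ratios factors over the 12611 genes whose mean reached 1 FPKM, which were the genes tested, taken as log2(FPKM + 0.1), and fitted by limma 3.58.1 (R 4.3.3) in 1 model of group, with a variance trend. Fold changes are on that scale and understate changes of low genes. Calls are two-sided and need a Benjamini-Hochberg adjusted p, over all tested genes, under 0.05. Levels are FPKM as deposited. Shares and ratios of FPKM were compared by exact permutation over libraries. The fit was tested on simulated data, in which far fewer genes changed than were called here on day 1.

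The members and gene lists were chosen with earlier results of these data known. Named were all 10 genes, P4hb, P3h1 and Ppib, the 2 largest called changes each way of both procollagen lists, the largest called change each way on day 1 of other lists, and the 3 nearest profiles. A result that this rule names is not reported here. Col1a1, Col1a2, Col3a1, Col4a1, Col4a2, P3h3, Tmem38b, Klhl12, Egln3, P4htm, Hspa1a, Hspa1b, and the genes given for overlap or as markers were added after values were seen. Alternatives covered pseudocount, filter, scaling, variance trend, replicate block, voom, the libraries fitted, each library left out, and, chosen after seeing the data, leaving out both libraries richest in Rn45s. Figures were drawn with matplotlib 3.10.9.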

Additional observations from a re-analysis of the deposited data

Results flagged for a closer look

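For 9 of the 10 genes the level differed between the times by a direct test of day 3 against day 1 (limma, Benjamini-Hochberg adjusted p under 0.05 over 12611 genes). Control has no stated harvest time, so time since peroxide and time in culture cannot be told apart in that test. Of all tested genes, 27.9% were higher and 28.4% lower in that test. The log2 difference was -0.76 for Plod2, -0.72 for Serpinh1, -0.42 for Plod3, -0.31 for P4ha2, -0.22 for Crtap, -0.13 for Plod1 and -0.11 for P4ha1. It was 0.31 for P4ha3 and 0.21 for P3h2, the 2 genes that had fallen on day 1. In each of these 9 genes all 3 day 3 values lay on the same side of all 3 day 1 values, as for 62.8% of all tested genes.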

How the results depend on the processing

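Of the recomputed fold changes, 568 kept their direction and call, 20 lost a call, 5 gained one and 7 changed sign; all 126 recomputed shares and ratios kept their direction, in a design whose exact test cannot go below 0.1. The 4 genes higher on day 3 than in control were 2 with no filter and 2 with no variance trend, and 2 to 6 with each library left out in turn. The sign changes were of uncalled values. P3h2 on day 3 against control ranged from -0.0016 to 0.047 (log2) with each library left out. Pcolce on day 3 against day 1 was 0.013 without rescaling, 0.038 with quantile normalization, 0.00089 by voom on recovered reads, 0.058 without both libraries richest in Rn45s, and -0.055 to 0.085 with each library left out; the cause was not tested. Over all genes, the 929 rises and 813 falls on day 3 became 534 to 922 and 468 to 859 with each library left out. Same-numbered libraries did not deviate together (correlations of -0.079 to 0.11 across genes), so the numbers were not taken to pair samples; under the replicate block, the members higher on day 3 were 5, Serpinh1 being added (adjusted p = 0.0349), and the members higher and lower on day 1 were 8 and 2. P4ha2, the gene with fewest reads, and the 3 libraries per group limit precision.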
